A study of Danio rerio with 2 samples.

Results

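The genes described here are *mcm2*, *mcm3*, *mcm4*, *mcm5*, *mcm6*, *mcm7* and *mcm10* of the zebrafish, chosen by gene name among the 32105 genes of an RNA-seq table, where each of the 7 names occurred once. RNA was measured in cells sorted for a gata1-EGFP transgene at 22 hours post fertilization, and the labels call these cells erythroblasts, the dividing precursors of red cells. Embryos with a knockout of *add1* gave 1 library and siblings labelled wild type gave the other, both with the transgene. Which allele was used, how many embryos went into a library and whether they were pooled was not stated. The mutant library held 5956344 counts and the sibling library 6157792 counts. With 1 library per genotype there was no replicate check and no test across embryos, so genotype and preparation cannot be told apart.

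The proteins Mcm2 to Mcm7 form a ring that encircles DNA and, powered by ATP, unwinds it ahead of the replication fork. The ring is loaded onto origins in G1 phase by the origin recognition complex with Cdc6 and Cdt1, and it becomes an active helicase in S phase when Cdc45 and the GINS complex join it. Mcm10 is no subunit of the ring, despite its name, and helps to switch the loaded helicase on. Genes of this set are known targets of E2F transcription factors in vertebrates, and their transcripts are abundant in cycling cells. A like amount of each subunit is needed for a ring, so the comparison asked whether transcripts of the 6 subunits were lower by a like factor.

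All 6 subunit transcripts were lower in the mutant library, by 1.99-fold for *mcm7* to 2.85-fold for *mcm5*, and *mcm10* was lower by 1.67-fold. Between these 2 libraries the subunits did not share 1 factor within the error of counting reads. Their log2 ratios spanned 0.52, where the interquartile range of all measured genes (defined below) was 0.70. *mcm5* and *mcm3* were the most lowered, *mcm2*, *mcm4* and *mcm6* lay close together, and *mcm7* was the least lowered of the 6. Whether these gaps would recur in other libraries was not tested. In a bulk library, fewer cells of a type and less RNA per cell cannot be told apart, and here this holds for cells in S phase too. Levels are given as CPM, read counts scaled to the same library total. Folds are ratios of CPM, with exact (Clopper-Pearson) 95% intervals that cover the counting of reads only. The kit amplifies cDNA by PCR without molecular identifiers, and duplicate reads would make these intervals too narrow.

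*mcm5* (ENSDARG00000019507, chromosome 3, 25868606 to 25880569, GRCz10) had 1206 mutant against 3553 sibling counts. At 202 against 577 CPM it was 2.85-fold lower in the mutant library (2.67 to 3.04). Mcm5 lies at the gate of the ring, where it meets Mcm2 and where the ring opens for loading in yeast. *mcm3* (ENSDARG00000024204, chromosome 20, 34867318 to 34880864) had 1352 counts against 3662. It was at 227 against 595 CPM, 2.62-fold lower (2.46 to 2.79). Mcm3 sits beside Mcm5 in the ring and in yeast makes the first contact with the loading machinery. The intervals of *mcm5* and *mcm3* overlapped each other and lay above those of the other 4 subunits.

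*mcm6* (ENSDARG00000057683, chromosome 6, 12733207 to 12755502) had 1466 counts against 3421, or 246 against 556 CPM, and was 2.26-fold lower (2.12 to 2.40). Mcm6 is the subunit that binds Cdt1 during loading. *mcm4* (ENSDARG00000040041, chromosome 24, 35648541 to 35673592) had 2052 counts against 4710, or 345 against 765 CPM, and was 2.22-fold lower (2.11 to 2.34). Mcm4 carries a tail that the Cdc7 and Dbf4 kinase phosphorylates at origin firing. *mcm2* (ENSDARG00000102798, chromosome 22, 5603970 to 5624920) had 2723 counts against 6083, or 457 against 988 CPM, and was 2.16-fold lower (2.07 to 2.26). Mcm2 also binds histones H3 and H4, which it passes on at the fork. The intervals of these 3 genes overlapped one another.

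*mcm7* (ENSDARG00000101180, chromosome 14, 150838 to 158517) had 1463 counts against 3006, or 246 against 488 CPM. It was 1.99-fold lower (1.87 to 2.12). Mcm7, together with Mcm4 and Mcm6, makes a complex that can unwind DNA in the test tube. The span of *mcm7* lies within that of *tmem107*, a cilium gene, and holds the microRNA genes *dre-mir-25*, *dre-mir-19d* and *dre-mir-93*. *tmem107* had 184 mutant and 115 sibling counts, and the microRNA genes had 0. Whether counting used strand is not given in the sources used here, so reads may have been split between these genes in an unknown way. With the *tmem107* counts added to *mcm7* its log2 ratio was -0.87 in place of -0.99. The spans of *mcm6* and *mcm3* were also overlapped, by *si:ch73-71c20.5* (104 mutant and 96 sibling counts) and *stmn4* (24 and 40), and adding these gave -1.11 in place of -1.17 and -1.38 in place of -1.39.

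*mcm10* (ENSDARG00000045815, chromosome 4, 7842500 to 7861102) was far less abundant, with 99 counts against 171. These were 16.6 against 27.8 CPM, 1.67-fold lower (1.30 to 2.16). Its interval is wide because it rests on few reads, and it overlapped those of *mcm7*, *mcm2*, *mcm4* and *mcm6*.

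**Figure D1:**
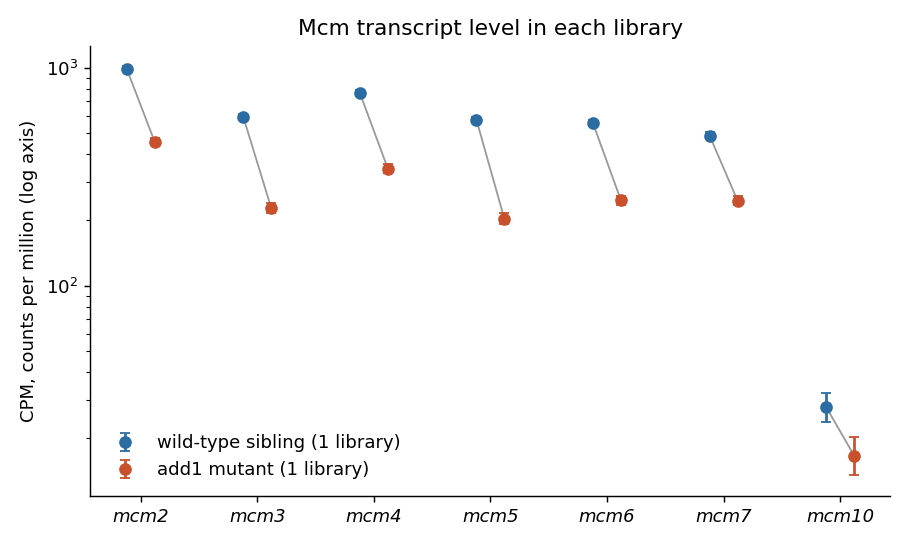
CPM of each Mcm gene (log axis) in the wild-type sibling library (blue) and the add1 mutant library (orange), 1 library each; bars are exact 95% Poisson counting intervals. Every gene is lower in the mutant library, and mcm10 lies at 16.6 and 27.8 CPM while the lowest subunit value is 202 CPM.

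Summed over the 6 subunits, counts were 10262 in the mutant library against 24435 in the sibling, or 1723 against 3968 CPM, a sum 2.30-fold lower (2.25 to 2.36). Log2 ratios, mutant over sibling, were taken of CPM + 1, and a gene counted as measured with at least 10 CPM in the higher library, which all 7 genes reached. The median of the 6 subunits was -1.16, with a range from -1.51 to -0.99, and that of all 9672 measured genes was 0.13. The 25th and 75th percentiles of measured genes were -0.19 and 0.51. Apart from the 6 subunits, 1.86% of measured genes had a ratio within the range of the subunits. By this ratio 5 of 6 subunits were at least 2-fold lower, all except *mcm7*, where 2.56% of measured genes were. Of the 2278 genes with 100 CPM or more in the higher library, a level that all 6 subunits exceeded, 3.51% were at least 2-fold lower. Their median log2 ratio was 0.006. Counted from the lowest ratio, *mcm5* ranked 71, *mcm3* 102, *mcm6* 167, *mcm4* 174, *mcm2* 190, *mcm7* 256 and *mcm10* 559 among the 9672 genes.

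**Figure D2:**
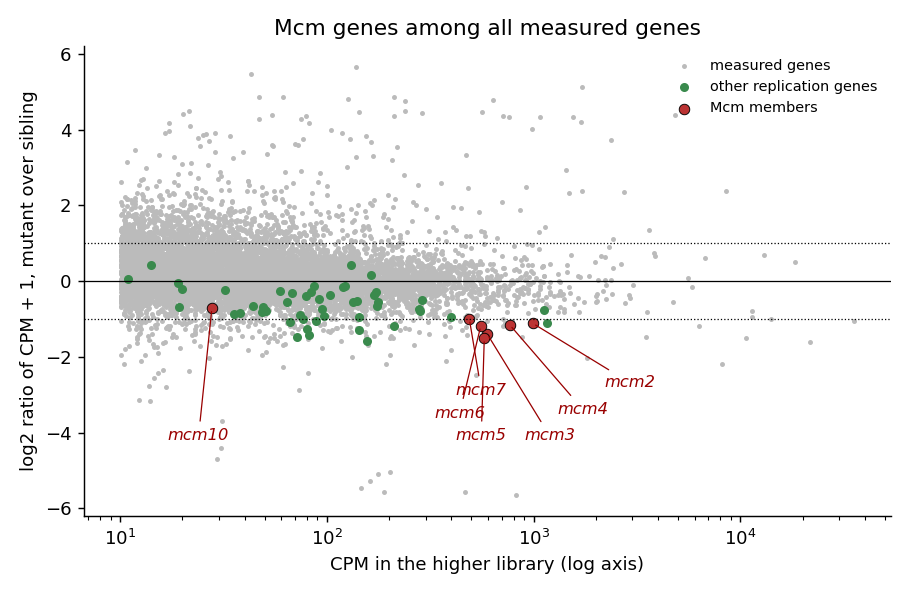
Log2 ratio of CPM + 1, mutant over sibling, against CPM in the higher library (log axis) for 9672 measured genes (grey), 50 other replication genes (green) and the 7 Mcm genes (red); dotted lines mark 2-fold. The 6 subunits lie together among abundant genes, between -1.51 and -0.99, and mcm10 lies at -0.71.

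The level of each ratio depended on how the libraries were scaled, while the differences between subunits did not. With TMM factors (a scaling that discounts genes of extreme ratio) the ratios of CPM were shifted by -0.20 on the log2 scale (by slightly less for low genes once 1 is added), the median of measured genes was -0.08 and 6 of 6 subunits were at least 2-fold lower, where 4.52% of measured genes were. When the libraries were scaled to the sum of 6 erythroid regulator genes, 2 subunits, *mcm5* and *mcm3*, were still at least 2-fold lower. With that scaling 114 measured genes were at least 2-fold lower, against 248 with library totals. Under all 6 scalings the median of the subunits lay between 1.29 and 1.30 below the median of measured genes. This distance could hardly change, since each scaling shifts all ratios of CPM alike, so it is no further check.

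Whether the subunits shared a factor was examined pair by pair, as the ratio of 2 genes' mutant-to-sibling ratios, which is the same under any scaling. Exact conditional 95% intervals were used; they cover counting error between these 2 libraries and are not adjusted over the 15 pairs. The interval excluded 1 for 11 of the 15 pairs. The share of such pairs among measured genes at large was not counted. The 11 pairs therefore do not show that the subunits were more unlike than other genes. The 4 pairs whose interval held 1 were *mcm4* with *mcm6* (1.02, 0.938 to 1.103), *mcm2* with *mcm4* (1.03, 0.959 to 1.101), *mcm2* with *mcm6* (1.04, 0.967 to 1.13) and *mcm3* with *mcm5* (1.09, 0.993 to 1.19). For these pairs a difference beyond about those limits was not seen, which does not show that they were lowered alike.

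The widest gap was that between *mcm7* and *mcm5*. Relative to *mcm5*, *mcm7* was 1.43-fold higher in the mutant library than in the sibling library (1.31 to 1.57). *mcm2* was 1.32-fold higher relative to *mcm5* (1.22 to 1.43), *mcm4* 1.28-fold (1.18 to 1.40) and *mcm6* 1.26-fold (1.15 to 1.38). Relative to *mcm3* the value was 1.32 for *mcm7* (1.21 to 1.44), 1.21 for *mcm2* (1.12 to 1.31), 1.18 for *mcm4* (1.09 to 1.28) and 1.16 for *mcm6* (1.06 to 1.27). *mcm7* stood apart from *mcm2* (1.09, 1.01 to 1.18), *mcm4* (1.12, 1.03 to 1.21) and *mcm6* (1.14, 1.04 to 1.24) by little, and at the level adjusted over 15 pairs these 3 intervals held 1. The 5 pairs with the largest values, from 1.26 to 1.43, each included *mcm5* or *mcm3*.

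In the ring the order is Mcm5, Mcm3, Mcm7, Mcm4, Mcm6, Mcm2 and back to Mcm5. Of the 6 neighbouring pairs, 3 had an interval that excluded 1: *mcm3* with *mcm7*, *mcm4* with *mcm7*, and *mcm2* with *mcm5*, the pair that forms the gate. *mcm3* with *mcm5*, *mcm4* with *mcm6* and *mcm2* with *mcm6* did not. Of 6 pairs with *mcm10*, 4 had an interval that excluded 1, and *mcm10* was the less lowered gene in all 6. The largest of these was with *mcm5*, at 1.71 (1.31 to 2.22).

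**Figure D3:**
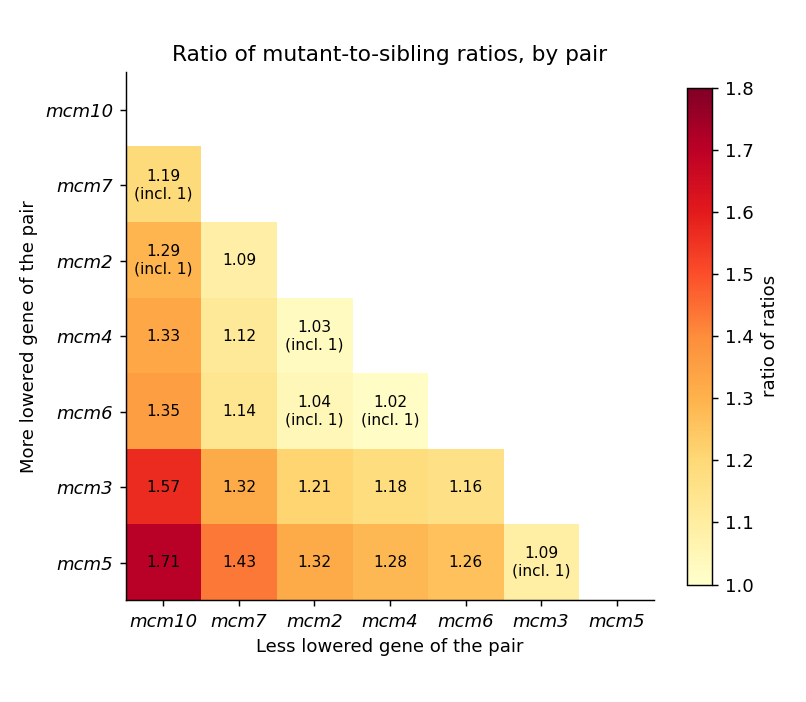
Ratio of mutant-to-sibling ratios for each pair of the 7 Mcm genes, the less lowered gene (columns) over the more lowered (rows), ordered from the least to the most lowered; "incl. 1" marks pairs whose exact 95% counting interval holds 1. mcm2, mcm4 and mcm6 differ by at most 1.04, and the darkest cells are in the rows of mcm3 and mcm5.

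Levels of different genes were compared per length, by the FPKM that the authors deposited (fragments scaled to gene length and library size). In the sibling library the order was *mcm2* (238 FPKM), *mcm5* (220), *mcm3* (194), *mcm4* (191), *mcm7* (162), *mcm6* (146) and *mcm10* (9.79). Each differed from the next beyond counting error except *mcm3* and *mcm4*, whose ratio was 1.02 (0.974 to 1.06). In the mutant library the order was *mcm2* (110 FPKM), *mcm4* (86.0), *mcm7* (81.4), *mcm5* (77.4), *mcm3* (74.1), *mcm6* (64.8) and *mcm10* (5.86). There *mcm4* and *mcm7* (ratio 1.06, 0.987 to 1.13), *mcm7* and *mcm5* (1.05, 0.974 to 1.14) and *mcm5* and *mcm3* (1.04, 0.965 to 1.13) could not be separated. By FPKM *mcm2* was thus the highest and *mcm6* the lowest subunit in both libraries, and *mcm5* and *mcm3* lay lower in the order of the mutant library. These intervals take the gene length behind the FPKM as exact. The length implied by counts and FPKM ran from 2617 bases for *mcm5* to 4147 for *mcm2*. Whether these lengths suit the transcripts present was not tested, and the order of genes within a library depends on them.

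Per length, the highest of the 6 subunits was 1.63 times the lowest in the sibling library and 1.70 times in the mutant library. *mcm5* made up 19.1% of the summed subunit FPKM in the sibling library and 15.7% in the mutant library, and *mcm3* 16.9% and 15.01%. *mcm7* made up 14.0% and 16.5%, *mcm2* 20.7% and 22.3%, *mcm4* 16.6% and 17.4%, and *mcm6* 12.7% and 13.1%. The lowest subunit, *mcm6*, was 14.9 times *mcm10* per length in the sibling library and 11.1 times in the mutant library.

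**Figure D4:**
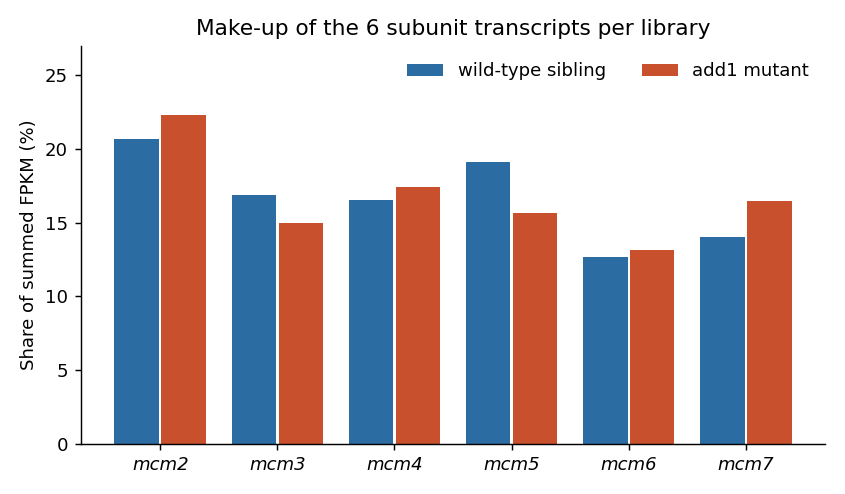
Share of each subunit in the summed FPKM of mcm2 to mcm7, in percent, for the wild-type sibling (blue) and add1 mutant (orange) libraries, 1 library each. The share of mcm5 is 19.1% in the sibling and 15.7% in the mutant library, and that of mcm7 is 14.0% and 16.5%.

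The other genes with Mcm in their names were lower by less. *mcmbp*, which encodes a binding partner that keeps Mcm proteins stable, was at 86.5 against 141 CPM, 1.63-fold lower (1.46 to 1.82). *mcm8* and *mcm9* encode a related helicase of recombination repair. *mcm8* was at 15.4 against 22.2 CPM, 1.44-fold lower (1.098 to 1.90), and *mcm9* at 43.0 against 50.3 CPM, 1.17-fold lower with an interval that held 1 (0.989 to 1.39). *mcm3ap*, a gene of messenger RNA export named for a protein that binds Mcm3, was at 68.8 against 85.3 CPM, 1.24-fold lower (1.09 to 1.41). Relative to *mcm9*, the sum of the 6 subunits was 1.97-fold lower in the mutant library (1.66 to 2.33), and relative to *mcmbp* 1.41-fold (1.26 to 1.58). The paralogs *mcm3l* and *mcm6l* were nearly undetected, with 2 counts each in the sibling library and 2 and 4 in the mutant library, so no fold is given for them.

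The list of ring loading genes also holds *gmnn*, the gene of an inhibitor of loading. Of its genes 8 of 9 were lower and 1 of 9 at least 2-fold lower, and the median log2 ratio was -0.67. Of all measured genes 39.2% were lower and 2.56% at least 2-fold lower, and the counts of the next lists are to be read against these shares. Both the counts and the share of 39.2% hold for library totals. With TMM scaling the median of measured genes was -0.08, so a larger share was lower at all. With 1 or 2 genes past 2-fold in a list, little can be read from them. The loading gene past 2-fold was *cdc6*, at 57.8 against 144 CPM (2.49-fold, 2.19 to 2.82). Among the origin recognition complex genes, *orc1*, whose level follows the cell cycle in mammals, was at 37.9 against 76.2 CPM (2.01-fold, 1.71 to 2.36), *orc5* at 20.8 against 37.8 CPM and *orc2* at 11.8 against 19.3 CPM. By the ratio of CPM + 1, *orc1* was at -0.99 and did not reach 2-fold. *orc4* was at 43.7 against 63.8 CPM and *orc6* at 121 against 177 CPM. By library totals *orc3* was higher, at 164 against 148 CPM, by less than the TMM shift. *cdt1* was at 132 against 169 CPM, and *gmnn*, which encodes the Cdt1 inhibitor geminin, at 27.2 against 48.4 CPM.

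Both 6-subunit complexes can be set side by side. The log2 ratios of *orc1* to *orc6* ranged from -0.99 to 0.15, a spread of 1.14, against 0.52 for *mcm2* to *mcm7*. Of 15 pairs of *orc* genes, 7 had an interval that excluded 1, with counts from 70 up that make these intervals wider. The extreme pair, *orc3* and *orc1*, differed by 2.23-fold (1.85 to 2.69), and *mcm7* and *mcm5* by 1.43-fold. The difference between the spreads was not tested.

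The partners that complete the active helicase were uneven too. *gins4* was at 29.7 against 81.7 CPM, 2.75-fold lower (2.31 to 3.28), close to *mcm5* and *mcm3*. *gins1* was at 29.2 against 50.2 CPM (1.72-fold, 1.42 to 2.08), *cdc45* at 66.0 against 91.1 CPM (1.38-fold, 1.21 to 1.57) and *gins2* at 59.4 against 78.9 CPM (1.33-fold, 1.16 to 1.53). *gins3* was at 18.3 against 19.0 CPM, and its interval held 1 (0.793 to 1.36). The median was -0.46; all 5 were lower and 1 at least 2-fold lower. Relative to the sum of these 5 genes the sum of the 6 subunits was 1.45-fold lower in the mutant library (1.35 to 1.57). Relative to the sum of the 9 genes of the loading list, *gmnn* included, it was 1.61-fold lower (1.53 to 1.69).

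**Figure D5:**
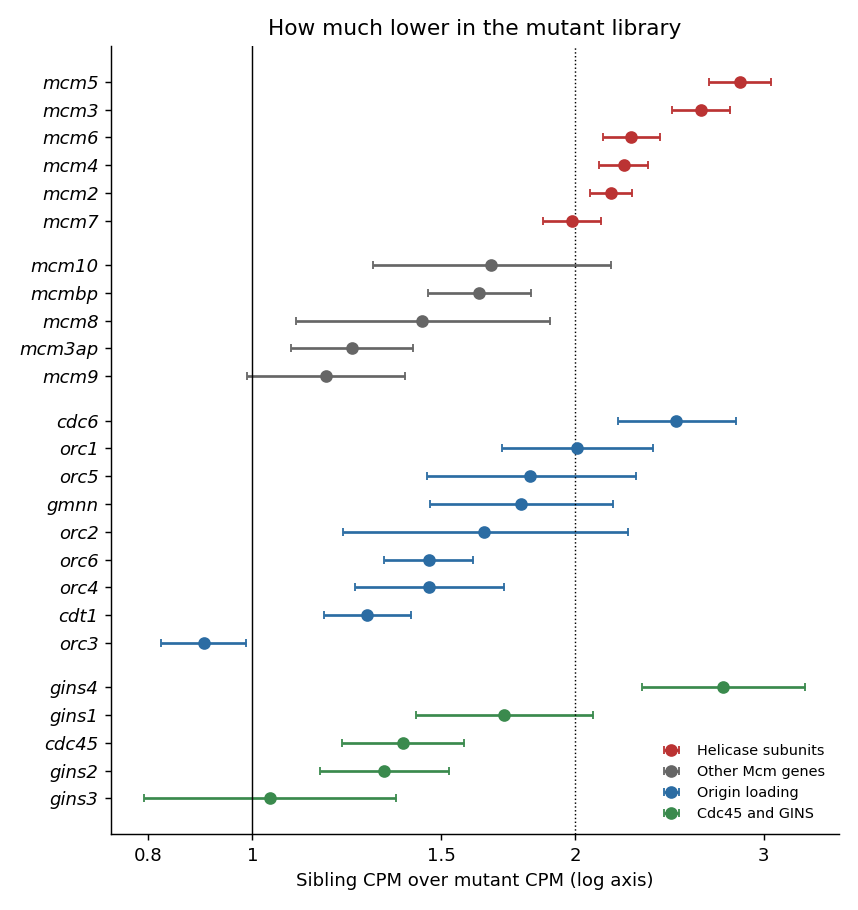
Sibling CPM over mutant CPM (log axis) with exact 95% counting intervals, for the 6 helicase subunits (red), other measured Mcm-named genes (grey), genes of the loading list, gmnn included (blue), and Cdc45 and GINS genes (green). The dotted line marks 2-fold. The subunits lie from 1.99 to 2.85, and cdc6 and gins4 are the only genes of the other 3 groups above 2.4.

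Of the genes that fire origins, 9 of 10 were lower and 2 at least 2-fold, with a median of -0.40. The other, *ccne1*, was at 10.9 against 10.4 CPM, with an interval that held 1. *ccne2*, the cyclin E2 gene, was at 52.2 against 157 CPM, *wdhd1* (ENSDARG00000015998), which ties the helicase to DNA polymerase alpha, at 92.3 against 211 CPM, *cdk2* at 74.0 against 143 CPM and *cdc7* at 30.2 against 49.2 CPM. The median of the fork protection genes was -0.85, and 6 of 7 were lower and 1 at least 2-fold lower. The gene that was not lower, *atr*, was at 14.1 against 10.2 CPM, with an interval that held 1. *rpa1*, which coats the unwound strands, was at 540 against 1167 CPM, *rpa2* at 207 against 399 CPM, *rpa3* at 39.5 against 73.9 CPM and the checkpoint kinase gene *chek1* at 19.1 against 35.4 CPM.

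The median of the polymerase, clamp and ligase genes was -0.74; 18 of 19 were lower and 4 at least 2-fold lower. *pola1* was at 25.2 against 71.9 CPM, *pole* at 33.1 against 80.1 CPM, *prim1* at 31.2 against 66.4 CPM and the clamp loader gene *rfc1* at 41.8 against 88.2 CPM. Over these lists together, without the Mcm genes, 46 of 50 measured genes were lower and 9 at least 2-fold lower, with a median of -0.67, where 39.2% of measured genes were lower at all. With TMM scaling 17 of them were at least 2-fold lower. Of the 50 genes, 6 had a ratio below the subunit median of -1.16 and 1, *ccne2*, below that of *mcm5*. The genes of these lists whose ratio was nearest to the subunit median were *wdhd1*, *rpa1*, *pole*, *prim1* and *rfc1*, with log2 ratios of -1.18, -1.11, -1.25, -1.06 and -1.06. This likeness rests on 2 libraries.

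Among E2F and retinoblastoma family genes, the regulators of the set, 8 of 11 were lower, 2 of them at least 2-fold, and 1 was at least 2-fold higher. Of all measured genes 39.2% were lower and 2.56% at least 2-fold lower. *E2F2*, as the table spells this activator gene, was at 9.07 against 73.1 CPM, 8.06-fold lower (6.07 to 10.9). *e2f8*, a repressor of the family that is itself made in S phase, was at 24.2 against 54.9 CPM. *rbl2*, which encodes the p130 pocket protein of resting cells, was at 74.9 against 2.92 CPM, 25.6-fold higher (16.02 to 43.6), and *tfdp1b*, a partner of E2F proteins, at 152 against 76.0 CPM. Related genes of the list did not all go the same way as these. *e2f7* was higher, at 107 against 89.0 CPM (1.20-fold, 1.07 to 1.35). *e2f3* was at 62.3 against 64.1 CPM, with an interval that held 1. The pocket protein genes *rb1* (281 against 352 CPM) and *rbl1* (94.9 against 139 CPM) were lower. The median of the list was -0.33. Where 10.1% of measured genes were at least 2-fold higher (7.05% with TMM scaling), 0 of the 7 Mcm genes and 0 of the 50 other replication genes were.

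Genes of mitosis, the later phase of the same cycle, had a median of -0.60. In this list 23 of 24 were lower, where 39.2% of measured genes were. With library totals 1 was at least 2-fold lower, which is near the background of 2.56%. With TMM scaling 4 were, where 4.52% of measured genes were. *top2a* was at 147 against 310 CPM, *kif11* at 240 against 463 CPM, *smc2* at 146 against 280 CPM and *smc4* at 181 against 326 CPM. Relative to the sum of this list the sum of the 6 subunits was 1.52-fold lower in the mutant library (1.48 to 1.56). Relative to *pcna*, the replication clamp gene, at 656 against 1122 CPM, it was 1.35-fold lower (1.29 to 1.41).

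The cells of both libraries expressed erythroid genes, with 17003 against 35404 CPM of *hbbe1.1*, 5936 against 11447 CPM of *hbbe3* and 6543 against 11324 CPM of *hbae3*. Of the 16 erythroid markers, 14 were lower in the mutant library, with a summed level of 41690 against 84387 CPM, and 6 were at least 2-fold lower. Of all measured genes 39.2% were lower and 2.56% at least 2-fold lower. Relative to *gata1a*, the gene whose promoter names the transgene, at 623 against 834 CPM, the summed subunits were 1.72-fold lower in the mutant library (1.64 to 1.805). By member this value ran from 1.48 for *mcm7* (1.38 to 1.60) to 2.13 for *mcm5* (1.97 to 2.30), and for *mcm10* it was 1.247 with an interval that held 1 (0.964 to 1.62). The result depended on the erythroid gene set beside it. Relative to *lmo2* and *gfi1b* the subunits were 2.47-fold (2.36 to 2.58) and 2.63-fold (2.50 to 2.76) lower. Both genes were slightly higher in the mutant library by library totals, by less than the TMM shift. Relative to *klf1*, at 355 against 797 CPM, the value was 1.03 (0.971 to 1.09), and relative to the sum of 5 globin genes it was 1.15 (1.12 to 1.18). *slc4a1a*, the band 3 gene, was lowered more than the subunits, at 1782 against 8152 CPM.

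Markers of other cell types also differed between the 2 libraries, many of them in the opposite direction, and their part in the result was not tested. Of all measured genes 60.8% were higher in the mutant library with this scaling. Skeletal muscle markers were higher in 17 of 18 measured cases, with a summed level of 14778 against 5016 CPM, led by *actc1b* (3624 against 1428 CPM), *smyhc1* (2748 against 541 CPM) and *myl13* (1717 against 328 CPM). Genes listed as hatching gland and notochord markers were higher in 10 of 10, at 5622 against 2399 CPM in sum. Most of the sibling sum was *klf17*, at 2059 against 2027 CPM, so the fold of the sum depends largely on this gene. Whether *klf17* marks these tissues in the sorted cells was not tested, so the sum cannot be read as their level. *klf17* was 1.02-fold higher, with an interval that held 1 (0.991 to 1.04). Of the other markers *he1a* had 980 against 59.6 CPM and 1 of 2 genes named *ctslb* 757 against 36.5 CPM. Neural markers were higher in 8 of 8, at 413 against 139 CPM in sum, with *tubb5* at 101 against 38.8 CPM, *stmn1b* at 92.8 against 26.5 CPM and *elavl3* at 69.3 against 29.9 CPM. Of the neural genes *sox11a* was at 0 in both libraries, and *sox11b*, *neurog1*, *olig2* and 1 of 2 genes named *ascl1b* were at 0 in the sibling library. A marker can pass the minimum through the mutant library alone, as *sox11b* did, which raises these counts of higher markers. With no minimum the neural median log2 ratio was 0.72 in place of 1.49. That of the hatching gland and notochord list was 2.62 in place of 3.79. Below the minimum and on few counts, *ascl1a*, the other *ascl1b*, *col9a1a*, *tnnt3b* and *mylpfb* were lower in the mutant library. Myeloid markers went both ways, with 6 of 11 lower (39.2% of measured genes were) and a sum of 1215 against 1291 CPM. Of the 11, 4 were at least 2-fold lower, where 2.56% of measured genes were. The 4 were the granule protein genes *lyz* (41.5 against 192 CPM), *mpx* (21.3 against 59.6 CPM), *npsn* (3.36 against 15.3 CPM) and *cpa5* (0.504 against 12.3 CPM, on 3 mutant counts), while *spi1a* (185 against 106 CPM) and *spi1b* (115 against 67.1 CPM) were higher. The most abundant were *lcp1* at 284 CPM in both libraries, *cebpa* at 267 against 152 CPM and *coro1a* at 124 against 225 CPM. *marco* was at 0 in the mutant library.

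*add1*, the targeted gene (ENSDARG00000103962, chromosome 21), had 18 mutant and 1166 sibling counts. The 7 Mcm genes lie on 7 different chromosomes, none of them chromosome 21. The 2 measured genes before and the 2 after each member by start position were taken as its neighbours, 28 in all, of which *tmem107* and *si:ch73-71c20.5* overlap their member. Of the other 26, 6 were lower in the mutant library, where 39.2% of measured genes were, and 5 of these had an interval above 1. Both hold for library totals, and the TMM shift of -0.20 would raise the count as well as the share. Among the 26, 0 were at least 2-fold lower, which at a background of 2.56% is no result about position, and their median was 0.31. *ube2v2*, just before *mcm4*, was at 402 against 388 CPM, and *tma7*, the second measured gene after *mcm2*, at 204 against 179 CPM. *hmox1a*, the heme oxygenase gene that starts at base 25880611, just past the end of *mcm5*, was at 20.7 against 12.3 CPM. On the other side of *mcm5*, *gcat* had the lowest ratio of the 26, at 49.4 against 72.6 CPM (1.47-fold lower, 1.27 to 1.71), and *si:ch1073-235i16.2* was at 17.5 against 23.2 CPM (1.33-fold, 1.03 to 1.73). *dock9b*, before *mcm6*, was at 74.9 against 104 CPM. *si:ch211-63o20.7*, before *mcm3*, was at 35.9 against 45.5 CPM. *aurkb*, a mitotic kinase gene near *mcm7*, was at 175 against 192 CPM.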

How the data were processed

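Libraries were made from sorted cells with a SMART-Seq HT kit and run on a BGISEQ sequencer, per the labels. The genome build was GRCz10 according to the submitters' processing notes. No source used here names the aligner, the counting tool, its strand setting or a filter. The table deposited by the authors holds raw counts and FPKM for every gene, and FPKM per count differed between libraries by the ratio of count totals, 1.03.

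Counts were divided by library totals (5956344 and 6157792) to give CPM (read counts per 1e6). Log2 ratios used a pseudocount of 1 and a minimum of 10 CPM in the higher library (59.6 mutant or 61.6 sibling counts). Intervals were exact Clopper-Pearson or conditional odds ratio intervals (scipy 1.17.1, Python 3.11.15). TMM and upper quartile factors came from edgeR 4.0.16 and size factors from DESeq2 1.42.0 in R 4.3.3, with no test run. Interval coverage was checked only on counts simulated with Poisson error, which these intervals assume. Duplicate reads and variation between preparations were not part of that check.

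The 7 members and all 14 gene lists were chosen with earlier results of these data known. Named genes are *add1*, the members, all measured genes of the Mcm-named, loading and Cdc45 and GINS lists, up to 4 of the largest absolute ratios in each other cycle list, up to 3 of the most abundant markers per cell type, neighbours, and the 5 nearest in ratio. *gata1a*, *klf1*, *lmo2*, *gfi1b*, *slc4a1a*, *pcna*, *e2f3*, *e2f7*, *rb1*, *rbl1*, *lyz*, *mpx*, *npsn*, *cpa5*, *spi1a*, *spi1b* and markers at 0 were named after their values were seen. So were *ccne1*, *atr*, *pole3* and the markers below the minimum. Of the member IDs, 7 matched the name table. Alternatives were other scalings, pseudocounts, minimums, fold rules and FPKM.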

Additional observations from a re-analysis of the deposited data

How the results depend on the processing

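All 59 log2 ratios of the 7 Mcm genes under alternatives that can change a ratio (scalings, FPKM, pseudocounts, overlapping counts) were below 0, and 1 library per genotype limits every value. The 59 are not separate checks. A pseudocount or FPKM cannot change the sign of a ratio, and each scaling shifts all genes alike, by at most 0.30 upward. The least lowered member, *mcm10*, was at -0.71. No paired analysis was possible because each genotype has 1 library. The subunit median of -1.16 was -1.36 with TMM, -1.36 with median-of-ratios (-1.359) and -1.36 with upper quartile scaling (-1.358), -1.27 with totals without the genes of ribosomal proteins, globins and mitochondria, and -0.86 with scaling to erythroid factors. The median of all measured genes, 0.13, was -0.075, -0.073 and -0.072 with TMM, median-of-ratios and upper quartile scaling. The 5 subunits at least 2-fold lower were 2 with scaling to erythroid factors and 0 at a 3-fold rule. The spread of 0.52 was 0.80 with *mcm10*. The 11 unlike pairs were 8 at the Bonferroni level and 5 when a minimum size was also asked for, which pairs from 1.26 up passed. The *add1* log2 ratio of -5.56 was -4.61 with FPKM and -4.60 with a pseudocount of 5.

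Measured genes at least 2-fold lower, 248, were 435 with TMM, 431 with median-of-ratios, 428 with upper quartile, 114 with erythroid factor scaling, 150 with FPKM, 578 with a minimum of 1 CPM or none, 123 with 50 CPM, 790 at 1.5-fold and 60 at 3-fold. Those at least 2-fold higher, 981, were 679 with TMM, 1749 with erythroid factor scaling, 434 with FPKM, 627 with a pseudocount of 5, 2414 with 1 CPM or none, 270 with 50 CPM, 2083 at 1.5-fold and 352 at 3-fold. The 9 replication genes at least 2-fold lower were 17 with TMM, median-of-ratios or upper quartile scaling, 4 with erythroid factor scaling, 27 at 1.5-fold and 0 at 3-fold. The myeloid median of -0.44 was 0.0010 with FPKM and 0.0011 with 50 CPM. Adding overlapping genes' counts to *mcm7*, *mcm6* and *mcm3*, chosen after seeing the data, gave -0.87, -1.11 and -1.38. These moves follow from the settings. Scalings shift all ratios of CPM alike, and a larger pseudocount shrinks the ratios of low genes. With FPKM the added 1 and the minimum fall on another scale: *add1* had 0.61 FPKM and 3.02 CPM in the mutant library. The other settings change which genes, pairs or reads are counted.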
